A study of Mus musculus with 29 samples.

Results

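Brain RNA of 7 non-stroked immunodeficient mice was compared, 4 NSG mice (numbered 1 to 4 in the labels) and 3 Rag2-/- mice (numbered 1, 2 and 4), out of 29 libraries in the series. They were chosen by their labels alone, as every mouse of either genotype that is labelled Ctrl, and the titles of all 7 carry the prefix Imm2. Rag2-/- mice lack the Rag2 recombinase subunit, and NSG mice combine the Prkdc scid mutation with a null allele of Il2rg on the NOD background. By the study's methods both strains came from the same breeding facility, both sexes were used, the mice were 3 months old, and tacrolimus was given to WT mice only. The labels give no sex. The label names the tissue only as brain. The sources differ on whether control RNA came from naïve mice or from the side opposite to a stroke, and the samples are therefore called non-stroked. Since the strains differ in the background as well as in the altered genes, a difference between them belongs to both together and the 2 cannot be told apart. Non-stroked WT mice (C57BL/6J, n = 4) and stroked NSG and Rag2-/- mice (n = 3 each, cortex 3 weeks after a photothrombotic stroke) are given beside the comparison. Whether stroked and non-stroked libraries of a strain come from different animals is not stated, and the methods count fewer NSG mice for sequencing than there are NSG libraries.

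Rag1 and Rag2 together cut the antigen receptor loci, so that mice without either form no mature T or B cells. Prkdc encodes the DNA-dependent protein kinase that joins these cuts, and Il2rg encodes the common gamma chain, a receptor subunit for the interleukins 2, 4, 7, 9, 15 and 21, which NK cells also need. The healthy cortex holds few lymphocytes in any strain, and its resident immune cells are the microglia. Inbred strains such as NOD and C57BL differ by many sequence variants, among them the haplotype of the major histocompatibility complex (MHC) on chromosome 17.

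Transcript levels are given as CPM, the read count relative to the library size after TMM normalization. A difference between strains is a log2 fold change, NSG minus Rag2-/-, with its standard error (SE), so that 1 is a doubling. Adjusted p-values are from edgeR's quasi-likelihood test with Benjamini-Hochberg adjustment over 17031 genes. A gene is called where the adjusted p lies under 0.05 and the log2 fold change is beyond 1 in either direction.

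Libraries held 34728335 to 41093219 counts in NSG and 33504722 to 36880024 in Rag2-/- mice. Markers of cortical layers were at summed levels of 7143 to 9134 CPM in NSG and 8598 to 9227 CPM in Rag2-/- mice, and none of the 18 was called. The choroid plexus gene Ttr stood at 1060, 273, 390 and 4.12 CPM in NSG mice 1 to 4 and at 1.22, 5.17 and 2.83 CPM in Rag2-/- mice 1, 2 and 4. All 13 choroid plexus markers had a positive log2 fold change (median 3.97) and none was called. The 12 striatal markers also had positive values (median 1.08, summed levels 810.8 to 3996 CPM in NSG and 772.3 to 1877 CPM in Rag2-/- mice) with none called. The Y-linked gene Ddx3y was at 49.2 to 53.1 CPM in the 4 NSG mice, at 38.9 CPM in Rag2-/- mouse 4, and at 0.0566 and 0 CPM in Rag2-/- mice 1 and 2. Markers of neighbouring tissue and Y-linked levels thus move with the strain, and the named genes were refitted with Ddx3y or Ttr as a covariate. Of the called ones, 10 lost their call with Ddx3y and 14 with Ttr. With Ddx3y these include Ccl17, Hba-a1, Impg1, Gm3667 and Dusp1 (adjusted p = 0.0702 to 0.242). With Ttr they include Cpne7, Nnat, Lpl, Trh, Mei4, Hba-a1 and Dusp1 (adjusted p = 0.0566 to 0.212) and Mmp15, which fell under the fold change minimum (0.978). Others are given beside their values. In bulk tissue more cells of a type and more RNA per cell cannot be told apart.

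The altered loci were examined first. B230118H07Rik, whose span on chromosome 2 contains Rag2 on the other strand, was at 14.7, 15.9, 15.5 and 15.8 CPM in the NSG mice and at 0.0566, 0.0912 and 0 CPM in the Rag2-/- mice. This is a log2 fold change of 8.17 (SE 0.33, adjusted p = 1.4e-15), with the WT mice at 15.2 ± 0.36 CPM (SD, n = 4). Rag2 itself had no count in any of the 7 libraries, and Rag1 was at 0.305 CPM or less in all of them. Prkdc, which in NSG mice carries a point mutation, was at 27.4 to 36.5 CPM in NSG and at 24.5 to 28.7 CPM in Rag2-/- mice, which overlap (log2 fold change 0.21, SE 0.15, adjusted p = 0.506).

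Il2rg transcripts were not lower in NSG mice. They were at 1.05, 0.863, 0.822 and 0.681 CPM in NSG and at 0.991, 0.76 and 0.667 CPM in Rag2-/- mice, and the groups overlap (log2 fold change 0.08, SE 0.37, adjusted p = 0.96). The neighbouring gene Gm614 (chromosome X, 101261376 to 101263992, minus strand, GRCm38), which ends short of Il2rg (101264378 to 101268255), differed between the strains. It was at 2.28, 1.75, 2.18 and 1.55 CPM in NSG mice and at 0.0283, 0.0608 and 0 CPM in Rag2-/- mice, with no count in the 4 WT mice. The log2 fold change was 5.84 (SE 0.59, adjusted p = 2.8e-07), and the 3 Rag2-/- counts put the ratio at 64.5 with a 95% counting interval of 21.8 to 315. Gm20489, an annotated gene that spans both, was higher as well (log2 fold change 2.43, SE 0.44, adjusted p = 0.000489). Of its 50-base stretches 90.9% also occur in transcripts of other genes, and 52.3% in those of Il2rg. Gm614 shares 65.1% of its own stretches with Gm20489, so reads may be split between these genes. In stroked mice Il2rg was at 0.784 to 0.979 CPM in NSG and at 2.36 to 3.16 CPM in Rag2-/- mice (log2 fold change -1.64, adjusted p = 0.0059), whereas the test of the change in this difference gave an adjusted p of 0.468.

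Over all genes 477 of 17031 were called (2.8% of those tested), of which 246 were higher in NSG mice (1.44%) and 231 lower (1.36%). Without the fold change minimum 1078 genes passed (6.33%). The values of the 4 NSG and the 3 Rag2-/- mice did not overlap for 467 of the called genes, and for 24.3% of all genes tested. Most called genes differed moderately, 258 of them by less than 4-fold, 142 by 4-fold to 16-fold and 77 by more. Low transcripts were frequent, since 209 had a mean below 1 CPM over the 7 mice and 73 a mean of at least 10 CPM. The number of calls is 225 with Rag2-/- mouse 4 as the only Rag2-/- mouse, the one with Ddx3y, and 238 with NSG mouse 4 as the only NSG mouse, the one with little Ttr, of which 208 and 205 are among the 477.

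**Figure D1:**
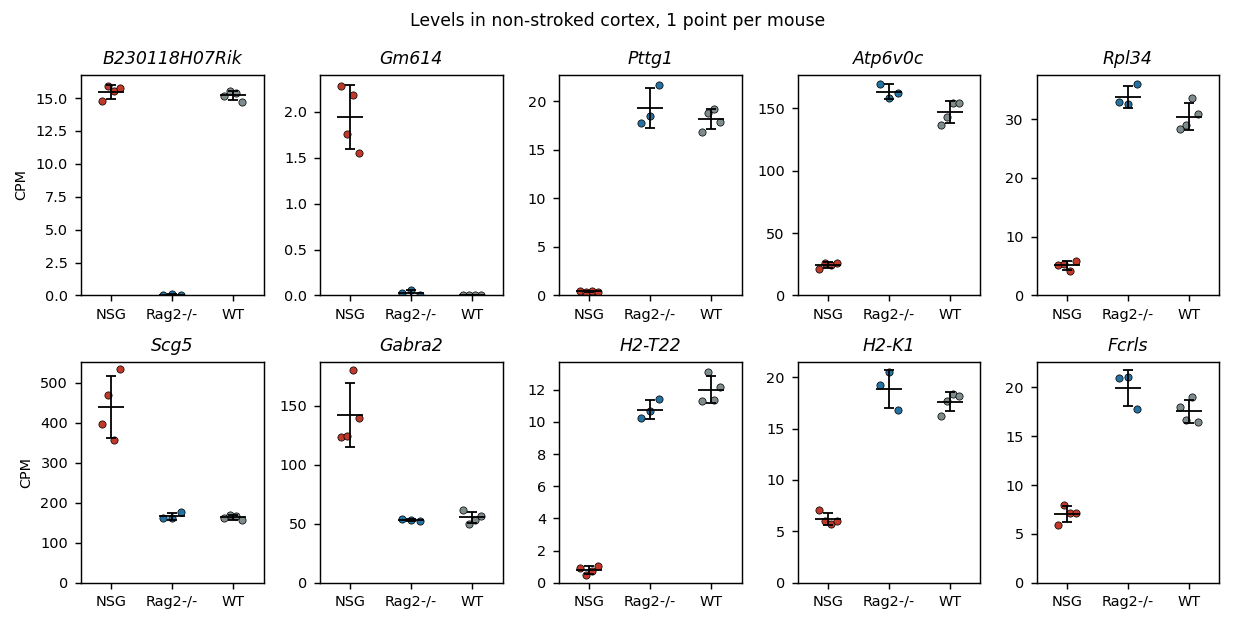
Level in CPM (vertical axis, from 0) of 10 genes in non-stroked NSG (red, n = 4), Rag2-/- (blue, n = 3) and WT mice (grey, n = 4), 1 point per mouse, with the mean (long dash) and SD (bars). NSG mice stand apart from Rag2-/- mice in each of the 10 panels, and the WT points lie near the Rag2-/- points except for B230118H07Rik, where they lie near the NSG points at 15.2 CPM.

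Several of the genes with the largest positive differences were copies of a gene elsewhere in the genome. A retrocopy arises when a spliced transcript is copied back into DNA, and it has no introns of its own. GENCODE marks 19 of the genes tested as retrogenes, a class looked up after the values were seen. Of these, 6 were called, all higher in NSG mice. They are near 0 in Rag2-/- and WT mice and passed the filter on low counts through the NSG groups, so neither their share nor their direction is a result about the class. They are Gm10260 (a copy of Rps18), Tpm3-rs7 (Tpm3), Eno1b (Eno1), Gm20075 (Btf3l4), Gm4737 (Ahcy) and AC117239.2 (Hspe1). Genes with at least 25% of their 50-base stretches in another gene were called in 8.2% of 939 cases, and genes below that share in 2.48% of 16071 cases.

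The coding sequences of 2 such pairs are shown because reads can be assigned only where they differ. They are the 180 bases that hold most of the differences, 5′ to 3′ on the coding strand, from GENCODE M21 transcripts on GRCm38. Capitals mark the bases at which copy and parent differ. Gm10260 (chr13:97760130-97760588, minus strand) and Rps18 (chr17:33952043-33955620, minus strand), a protein of the small ribosomal subunit, share 455 of 459 coding bases (99.1%), and bases 252 to 431 are printed.
Gm10260: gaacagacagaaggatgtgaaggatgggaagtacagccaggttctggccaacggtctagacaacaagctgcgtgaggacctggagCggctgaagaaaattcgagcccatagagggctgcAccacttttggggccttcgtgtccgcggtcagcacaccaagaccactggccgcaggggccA
Rps18: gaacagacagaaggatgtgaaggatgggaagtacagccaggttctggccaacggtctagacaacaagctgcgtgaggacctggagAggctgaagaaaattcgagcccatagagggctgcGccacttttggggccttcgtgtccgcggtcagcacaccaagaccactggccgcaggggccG
Tpm3-rs7 (chr14:113314676-113315422, plus strand) and Tpm3 (chr3:90079732-90099610, plus strand), a tropomyosin that winds along actin filaments, share 744 of 747 coding bases (99.6%), and the first 180 are printed.
Tpm3-rs7: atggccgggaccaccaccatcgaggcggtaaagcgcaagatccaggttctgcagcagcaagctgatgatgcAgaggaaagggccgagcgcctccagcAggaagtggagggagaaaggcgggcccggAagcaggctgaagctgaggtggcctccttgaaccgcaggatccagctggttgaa
Tpm3: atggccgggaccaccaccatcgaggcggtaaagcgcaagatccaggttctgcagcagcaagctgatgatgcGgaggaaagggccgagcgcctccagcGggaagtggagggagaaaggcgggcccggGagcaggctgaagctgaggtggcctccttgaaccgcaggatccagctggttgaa

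Gm10260 was at 18.7, 18.6, 19 and 19.7 CPM in NSG mice and at 0, 0.0304 and 0.0635 CPM in Rag2-/- mice (log2 fold change 9.13, SE 0.52, adjusted p = 7.43e-12). Its parent Rps18 was lower in NSG mice, at 21.3, 24.5, 25.8 and 24.6 CPM against 47.7, 44.3 and 53.5 CPM (log2 fold change -1.01, SE 0.17, adjusted p = 0.000225). The sum of both was 43.1 ± 2.15 CPM (SD, n = 4) in NSG and 48.5 ± 4.65 CPM (SD, n = 3) in Rag2-/- mice, and these sums overlap. Copy and parent differed in opposite directions, although Rps18 was under the fold change minimum without NSG mouse 1 (-0.96) or Rag2-/- mouse 4 (-0.94) and with Ddx3y as a covariate (-0.82).

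Tpm3-rs7 followed the same pattern, at 33.9, 37.8, 35.7 and 37.7 CPM in NSG and at 0.142, 0.0912 and 0.0635 CPM in Rag2-/- mice (log2 fold change 8.45, SE 0.34, adjusted p = 1.4e-15). Tpm3 was at 56.2 to 59.8 CPM against 106 to 119.2 CPM (log2 fold change -0.94, SE 0.07, adjusted p = 6.26e-10), which is under the fold change minimum. Here the sums did not overlap, with 94.7 ± 3.07 CPM (SD, n = 4) against 112.5 ± 6.59 CPM (SD, n = 3). Eno1b, a copy of the glycolytic enzyme enolase, was at 17.6 to 23.8 CPM in NSG and at 0.152 CPM or less in Rag2-/- mice (log2 fold change 8.62), with Eno1 at a log2 fold change of -0.53 (adjusted p = 0.000891). Ahcy (log2 fold change -0.57, adjusted p = 0.00326), Btf3l4 (-0.58, adjusted p = 0.0349) and Hspe1 (-1.48, adjusted p = 1.05e-06) were also lower beside their copies. Ahcy hydrolyses S-adenosylhomocysteine and Hspe1 is a mitochondrial co-chaperone. Over all 68 called genes whose closest copy is in the files, the summed level of both differed by less than 1 on the log2 scale in 25. Calls in these genes are uncertain as to which copy was transcribed.

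**Figure D2:**
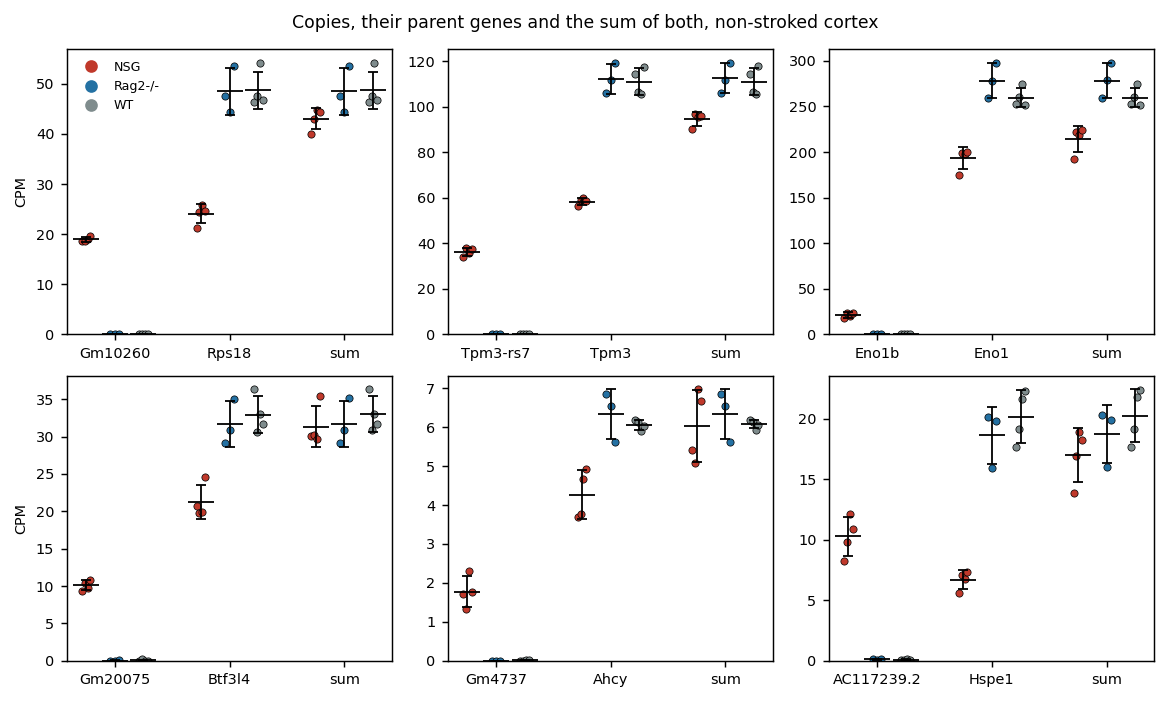
Level in CPM (vertical axis, from 0) of 6 copies, of their parent genes and of the sum of both in non-stroked NSG (red, n = 4), Rag2-/- (blue, n = 3) and WT mice (grey, n = 4), 1 point per mouse with mean and SD. Each copy is near 0 in Rag2-/- and WT mice and each parent is lower in NSG than in Rag2-/- mice, while the sums overlap for Gm10260, Gm20075, Gm4737 and AC117239.2 and are lower in NSG mice for Tpm3-rs7 and Eno1b.

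The lower genes included several that were close to absent in NSG mice. Pttg1, which encodes securin, the inhibitor of separase in mitosis, was at 0.497, 0.406, 0.482 and 0.309 CPM in NSG and at 17.8, 18.5 and 21.7 CPM in Rag2-/- mice. With a log2 fold change of -5.49 (SE 0.18, adjusted p = 1.28e-17) it had the smallest p of all genes tested. Trim12a, a tripartite motif protein, had no count in the 4 NSG libraries against 2.35 to 2.8 CPM in the Rag2-/- libraries, which puts it at least 119-fold lower if the NSG group is set at 3 counts in all. Rec8, a meiotic cohesin subunit, was at 0.0928 CPM or less against 2.57 to 3.53 CPM (log2 fold change -6.34, adjusted p = 1.02e-13). Gm16867 had no count in NSG mice and was at least 55.7-fold lower, with 93% of its 50-base stretches found in another gene. The predicted genes Gm5148, Gm45640 and Gm45793 were lower by log2 fold changes of -6.21, -4.88 and -4.64.

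Atp6v0c encodes the proteolipid subunit of the vacuolar ATPase, which acidifies lysosomes and synaptic vesicles. It was at 21.2, 26.2, 24.1 and 26.4 CPM in NSG and at 169.7, 158.3 and 162.1 CPM in Rag2-/- mice (log2 fold change -2.74, SE 0.11, adjusted p = 1.23e-15), and WT mice were at 147.2 ± 9.01 CPM (SD, n = 4). Srp54a, a subunit of the signal recognition particle, was at 0.102 to 0.198 CPM against 2.57 to 4.7 CPM (log2 fold change -4.85, adjusted p = 6.45e-12). Of its 50-base stretches 70.4% occur in Srp54b, which had no count in any of the 7 libraries.

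Among 83 ribosomal protein genes tested, 4 were called, all lower in NSG mice (1.36% of all genes were called lower), with a list median of -0.01 against 0.01 over all genes on the log2 scale. Beside Rps18 they were Rpl34 at 5.12, 5.36, 4.14 and 5.82 CPM in NSG against 32.9, 32.6 and 36 CPM in Rag2-/- mice (log2 fold change -2.73, adjusted p = 1.66e-10), Rpl35a (-2.50, adjusted p = 7.7e-12) and Rpl29 (-1.66, adjusted p = 4.28e-08). The most abundant members, Rpl4, Rplp1 and Rpl13a, differed by -0.09 to 0.06. Of 13 genes of the mitochondrial genome, mt-Nd3 and mt-Nd4l were called. mt-Nd3 had 3 counts over the 4 NSG libraries and 867 over the 3 Rag2-/- libraries, a ratio of 409 lower with a 95% counting interval of 140 to 1988. Its transcript shares 98% of its 50-base stretches with the nuclear copy Gm28438, and that of mt-Nd4l shares 98.8% with Gm10222, so both calls are uncertain. mt-Co1, mt-Cytb and mt-Nd1, all at 9375 CPM or more, differed by -0.24 to 0.23 and were not called.

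Among the abundant genes that were higher in NSG mice, Scg5 encodes 7B2, the chaperone of prohormone convertase 2 in neuroendocrine vesicles. It was at 398.1, 470.4, 358.1 and 533.8 CPM in NSG against 161.2, 161.7 and 175.8 CPM in Rag2-/- mice (log2 fold change 1.40, SE 0.19, adjusted p = 1.09e-05). Gabra2, the alpha 2 subunit of the GABA A receptor, was at 123.4, 124.4, 180.6 and 139.8 CPM against 53.7, 53.2 and 52.4 CPM (log2 fold change 1.42, SE 0.14, adjusted p = 1.01e-07). It was the single called gene of 39 glutamate and GABA receptor genes, whose median was 0.00, beside 2.8% of all genes called. Nrsn2, a vesicle protein of neurons, was at 113.2 to 187.9 CPM against 58.3 to 63.4 CPM (log2 fold change 1.21, adjusted p = 0.000458).

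Wfs1, the wolframin of the endoplasmic reticulum, was at 171.6 to 279.1 CPM in NSG and 96 to 113.5 CPM in Rag2-/- mice (log2 fold change 1.05, adjusted p = 0.000157), and fell under the fold change minimum without NSG mouse 3 (0.89) or Rag2-/- mouse 4 (0.99). Nnat, a small proteolipid of the endoplasmic reticulum, and Cpne7, a calcium-dependent phospholipid-binding protein, depended on single mice. Nnat was at 118.5, 83.6, 296.3 and 140.7 CPM against 56.7 to 78.8 CPM (log2 fold change 1.23, adjusted p = 0.0319), and lost its call without NSG mouse 3 (0.75, adjusted p = 0.222) and without each of the Rag2-/- mice (adjusted p = 0.0685 to 0.147). Cpne7, whose groups overlap, was called at 1.14 (adjusted p = 0.0182) and lost its call without NSG mouse 3 (0.72, adjusted p = 0.133) and without Rag2-/- mouse 1 or 2 (adjusted p = 0.106 and 0.0743). The most abundant lower genes, beside early genes treated next, were Tmem44 (60.7 ± 5.68 CPM in NSG, SD, n = 4, against 126.8 ± 1.31 CPM, SD, n = 3, log2 fold change -1.06) and AC149090.1, a gene on an unplaced scaffold (-2.55). Tmem44 fell under the fold change minimum with Ttr as a covariate (-0.89), with NSG mouse 4 as the lone NSG mouse (-0.95) and in the 6 mice that share a number (-0.998).

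Immediate early genes are transcribed within minutes of neuronal activity or growth factor signals, and many encode transcription factors. Of 33 such genes tested, 31 had a negative log2 fold change and 5 were called lower in NSG mice, against 1.36% of all genes. The list median was -0.57, against 0.01 over all genes tested. Their summed level was 1506, 2114, 1879 and 1801 CPM in NSG mice and 2718, 4279 and 2809 CPM in Rag2-/- mice, so that the groups do not overlap. WT mice were at 2562 to 4896 CPM.

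Arc, which encodes a synaptic protein that controls AMPA receptor uptake, was at 116, 248.1, 156.8 and 112.4 CPM in NSG and at 408.3, 843.5 and 302.2 CPM in Rag2-/- mice (log2 fold change -1.71, SE 0.43, adjusted p = 0.0125). Egr1, a zinc finger transcription factor, was at 234.2, 397.7, 308.2 and 274.7 CPM against 514.3, 877.2 and 630.3 CPM (log2 fold change -1.15, SE 0.22, adjusted p = 0.00121). Nr4a1, an orphan nuclear receptor, was at 59.8, 108.6, 95.6 and 52.6 CPM against 158.3, 311.2 and 140.7 CPM (log2 fold change -1.36, SE 0.31, adjusted p = 0.00505). In each of the 3 genes the groups stayed apart, and Rag2-/- mouse 2 held the highest value.

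Dusp1 and Dusp6 encode phosphatases that switch off MAP kinases. Dusp1 was at 26.9, 43.7, 38.2 and 27.2 CPM in NSG against 56.5, 107.7 and 50.8 CPM in Rag2-/- mice (log2 fold change -1.08, SE 0.32, adjusted p = 0.039). Dusp6 was at 37.4, 55.6, 37.6 and 37 CPM against 78, 109.7 and 64 CPM (log2 fold change -1.001, SE 0.19, adjusted p = 0.000675), at the edge of the minimum. Egr3 (-0.76, adjusted p = 0.0119) and Ier5 (-0.74, adjusted p = 0.0132) passed the p threshold alone. Fos was at 9.54, 26.7, 31.4 and 11.5 CPM against 28.1, 86.5 and 41.8 CPM, overlapping, with a log2 fold change of -1.40 (adjusted p = 0.0516). Trib1, a pseudokinase outside the list and noted after its values were seen, was also lower (-1.39, adjusted p = 0.000325).

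These calls leaned on Rag2-/- mouse 2. Without it Arc (-1.16, adjusted p = 0.193), Nr4a1 (-0.91, adjusted p = 0.123) and Dusp1 (-0.65, adjusted p = 0.392) lost the test, and Egr1 (-0.91, adjusted p = 0.0281), Dusp6 (-0.76, adjusted p = 0.0208) and Trib1 (-0.996, adjusted p = 0.013) fell under the fold change minimum. Dusp1 and Dusp6 also lost their call without NSG mouse 1 or 4, at -0.98 for Dusp1 and -0.95 for Dusp6 each, and without NSG mouse 3 (Dusp1 -1.14 with adjusted p = 0.0652, Dusp6 -0.95). With Rag2-/- mouse 4, which has Ddx3y like the NSG mice, as the lone Rag2-/- mouse, the list median was -0.45 and none of the 5 was called. With Ddx3y as a covariate the list median was -0.44, and Arc (-1.52, adjusted p = 0.0475), Egr1 (-1.36, adjusted p = 0.000427) and Nr4a1 (-1.27, adjusted p = 0.0223) were called while Dusp1 (-0.98) and Dusp6 (-0.84) were not. The list median was -0.71 with Ttr as a covariate and -0.69 with NSG mouse 4 as the lone NSG mouse.

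The promoters of the called early genes Dusp1, Nr4a1 and Dusp6 are shown as a description. Those of Arc and Egr1, also called, were not searched. Each is the 250 bases before the transcription start, 5′ to 3′ on the gene's strand, GRCm38.p6. Capitals mark matches to TGACG, the first part of the cyclic AMP response element TGACGTCA, on either strand. A CArG box, the site of serum response factor, was searched as well and matched in none of the 3.
Dusp1 (chr17:26508473-26508722, minus strand): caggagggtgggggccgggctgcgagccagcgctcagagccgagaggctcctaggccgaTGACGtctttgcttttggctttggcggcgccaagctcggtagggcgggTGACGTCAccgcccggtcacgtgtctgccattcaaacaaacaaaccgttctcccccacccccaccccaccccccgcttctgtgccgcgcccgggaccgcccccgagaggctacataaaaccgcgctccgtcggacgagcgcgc
Nr4a1 (chr15:101266596-101266845, plus strand): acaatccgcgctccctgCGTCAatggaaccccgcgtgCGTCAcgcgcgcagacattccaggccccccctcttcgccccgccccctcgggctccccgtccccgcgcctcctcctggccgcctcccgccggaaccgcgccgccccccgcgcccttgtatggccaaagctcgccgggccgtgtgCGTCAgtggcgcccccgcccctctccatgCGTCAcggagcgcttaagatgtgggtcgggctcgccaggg
Dusp6 (chr10:99262981-99263230, plus strand): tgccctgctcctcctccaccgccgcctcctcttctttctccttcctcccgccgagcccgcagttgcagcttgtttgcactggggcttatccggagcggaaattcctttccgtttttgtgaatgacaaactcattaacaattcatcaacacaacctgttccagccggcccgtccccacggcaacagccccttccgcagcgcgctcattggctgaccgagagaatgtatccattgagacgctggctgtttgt
The 5-base motif occurs 3 times in Dusp1, where 2 of the matches make up 1 full element, 4 times in Nr4a1 and not in Dusp6. It is present in 17.8% of 32851 promoters of this length, and the full element in 1.55%. At least 1 promoter held the 5-base motif in 19 of the 26 early genes searched, against 19.8% of all 27025 genes. The 26 include genes that were not called, so this share describes the list of early genes. A relation of the motif to the strain difference was not tested. A match of letters is a description and not a binding site.

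**Figure D3:**
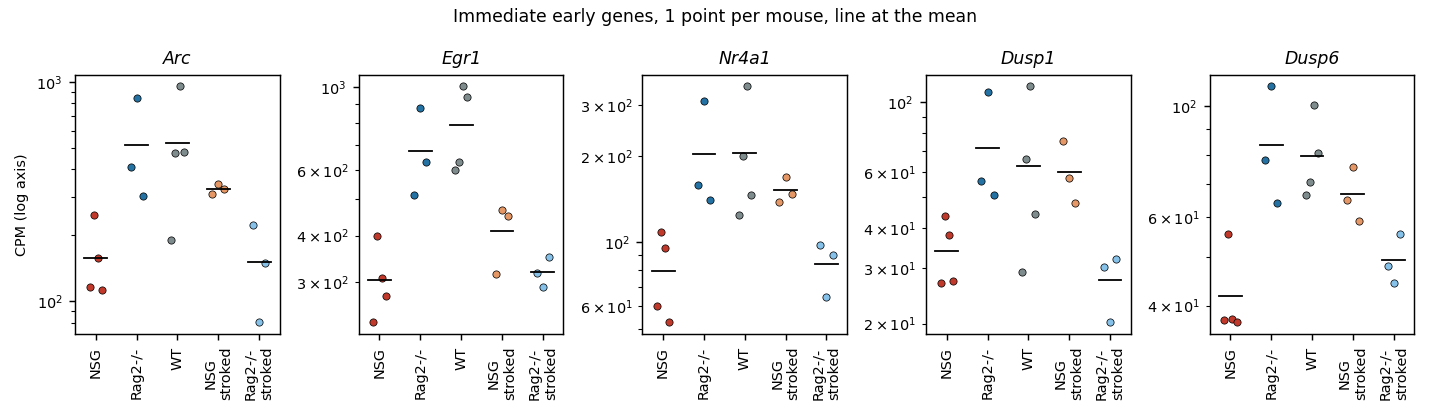
Level in CPM (vertical log axis) of the 5 called early genes in non-stroked NSG (n = 4), Rag2-/- (n = 3) and WT mice (n = 4) and in stroked NSG and Rag2-/- mice (n = 3 each), 1 point per mouse, line at the mean. Non-stroked NSG mice lie below non-stroked Rag2-/- mice in all 5 genes, while among stroked mice the mean is higher in NSG mice, for example 325.7 against 150.6 CPM for Arc.

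All but 1 of the 33 early genes had a positive log2 fold change between stroked NSG and stroked Rag2-/- cortex (median 0.59), and the summed level was 2408 to 2802 CPM in NSG against 1720 to 1866 CPM in Rag2-/- mice. Dusp1 was the single one of the 5 called there (log2 fold change 1.14, adjusted p = 0.0402). The difference between the 2 strain differences was tested itself. It was 2.82 for Arc (SE 0.63, adjusted p = 0.182), 2.21 for Nr4a1 (SE 0.45, adjusted p = 0.138), 2.21 for Dusp1 (SE 0.47, adjusted p = 0.181), 1.51 for Egr1 (SE 0.33, adjusted p = 0.182) and 1.44 for Dusp6 (SE 0.27, adjusted p = 0.108), and none passed. Over all genes this test called 0 (0%), while 1598 genes had an unadjusted p under 0.05, while DESeq2 called 14, among them Arc, Egr1, Nr4a1, Dusp1, Dusp6, Ier2 and Junb. Without stroked NSG mouse 3 edgeR called 21. Y-linked expression was distributed in reverse here, with Ddx3y at 0, 0 and 44.6 CPM in stroked NSG and 0, 41.5 and 48.9 CPM in stroked Rag2-/- mice.

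Cd3d and Cd3g, parts of the T cell receptor complex, had no count in any of the 7 libraries, and Cd3e had 0 counts over the NSG and 2 over the Rag2-/- libraries. Of the B cell markers Ms4a1 had 1 count over the Rag2-/- libraries and none over the NSG libraries. Of the NK cell markers Ncr1 had 1 count and Gzmb none over the 7 libraries. A total of 20 T cell, 15 B cell and 16 NK cell markers were listed, of which 18, 9 and 7 passed the filter on low counts. The summed T cell list was at 20.8 to 54 CPM in NSG and 26.6 to 40.1 CPM in Rag2-/- mice, made up mostly of Cd4, Trbc2 and Cd6. The summed B cell list, mostly Ighm, was at 19.4 to 54.5 against 47.4 to 57.5 CPM, and the NK cell list at 0.556 to 2.75 against 0.481 to 0.669 CPM. No B or NK cell marker was called.

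Among 21 genes of gamma chain signalling tested, Il15, the cytokine that sustains NK cells, was called lower, beside 1.36% of all genes called lower. It was at 0.0585, 0.0762, 0.113 and 0.155 CPM in NSG against 0.595, 0.547 and 0.508 CPM in Rag2-/- mice (log2 fold change -2.42, SE 0.43, adjusted p = 0.000436). Il7r, noted after its values were seen, was at 1.36 to 1.7 CPM against 0.304 to 0.566 CPM without overlap, but did not pass (log2 fold change 1.91, SE 0.61, adjusted p = 0.064). Jak1 and Stat5b, which carry the signal, differed by -0.11 and 0.21 with no call.

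The MHC class I genes present peptides to CD8 T cells and NK cells, and they differed in both directions. Of 26 genes of the pathway tested, 3 were called lower and 1 higher, with a median of -0.07, while 2.8% of all genes were called and their median was 0.01. H2-T22 was at 0.907, 0.508, 0.737 and 1.05 CPM in NSG against 10.2, 10.7 and 11.4 CPM in Rag2-/- mice (log2 fold change -3.76, SE 0.23, adjusted p = 5.92e-12). H2-T23, the mouse Qa-1 molecule that NK receptors read, was at 1.29 to 1.79 CPM against 10.9 to 12.4 CPM (log2 fold change -3.03, adjusted p = 8.39e-10). H2-K1, a classical class I heavy chain, was at 7.11, 6.02, 5.73 and 5.97 CPM against 19.2, 20.6 and 16.8 CPM (log2 fold change -1.60, SE 0.30, adjusted p = 0.000634). H2-D1, the other classical heavy chain measured, was at 25.9 to 30.2 against 28.6 to 31.7 CPM (-0.13, adjusted p = 0.915).

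H2-Q10 was higher in NSG mice, at 0.556 to 1.3 CPM against 1 count over the 3 Rag2-/- libraries, a ratio of 83.3 with a 95% counting interval of 14.7 to 3319. B2m, the light chain of all class I molecules, passed the p threshold alone (-0.79, adjusted p = 0.0421). Calr, Canx and Pdia3, which load the heavy chains, differed by 0.03 to 0.15. Class II genes were low in the tissue, H2-Aa at 0.51 to 2.18 CPM in all 7 mice, and of 10 tested H2-Oa was called (log2 fold change -1.78, adjusted p = 0.00405, 14 counts over the NSG and 35 over the Rag2-/- libraries). The haplotype of the MHC differs between the strains, and which of these genes differ in sequence was not examined. The part of allele-dependent read assignment in these values was not tested.

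Of 36 interferon-stimulated genes tested, 1 was called higher and 1 lower, with a median of -0.10. Over all genes 2.8% were called and the median was 0.01. The counts of called members in the lists that follow stand beside the same 2.8%, and a lone call in a short list is not a result about the list. Ifi202b had 33 counts over the NSG libraries and none over the Rag2-/- libraries, at least 7.77-fold higher, and Igtp, an interferon-induced GTPase, was at 0.835 to 1.73 against 3.3 to 3.85 CPM (log2 fold change -1.44, adjusted p = 0.00303). Stat2, a transcription factor of the pathway, differed by -0.14. Of 26 complement genes Cd59a was called, an inhibitor of the membrane attack complex, at 15.2, 12.2, 16 and 15.9 CPM in NSG against 5.41, 3.31 and 3.11 CPM in Rag2-/- mice (log2 fold change 1.90, SE 0.28, adjusted p = 3.04e-05). C1qa, C1qb and C1qc, which start the classical pathway, ranged from -0.57 to 0.14 and were not called. Among 29 chemokine and cytokine genes Ccl17 was called (1.39, adjusted p = 0.0211), and lost its call without NSG mouse 2 (adjusted p = 0.0641) or Rag2-/- mouse 1 (0.147) or 2 (0.0708).

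Of 16 homeostatic markers 1 was called, Fcrls, an Fc receptor-like protein of mouse microglia, at 5.94, 7.92, 7.17 and 7.18 CPM in NSG against 21, 21.1 and 17.8 CPM in Rag2-/- mice (log2 fold change -1.50, SE 0.26, adjusted p = 0.00034). With Ddx3y as a covariate it fell under the fold change minimum (-0.989, adjusted p = 0.00043). Csf1r and Cx3cr1, 2 of the most abundant markers, differed by 0.10 and 0.32 with no call. The purinergic receptors P2ry12 and P2ry13 passed the p threshold alone in the other direction (0.56 and 0.54, adjusted p = 0.0134 and 0.00981). Of 14 markers of reactive microglia Lpl, the lipoprotein lipase, was called at 44.3, 44.1, 62.3 and 65.5 CPM against 26, 21.1 and 21.4 CPM (log2 fold change 1.24, adjusted p = 0.0316), and lost its call without NSG mouse 3 or 4 or any of the Rag2-/- mice (adjusted p = 0.0683 to 0.132). Apoe, Ctsd and Axl were not called, and none of 10 markers of border macrophages was.

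Of 14 astrocyte genes Serpina3n was called, a serine protease inhibitor that reactive astrocytes secrete. It was at 45.7, 42.2, 59.2 and 45.3 CPM in NSG against 11.8, 12.3 and 16.3 CPM in Rag2-/- mice (log2 fold change 1.84, SE 0.46, adjusted p = 0.0138), and without Rag2-/- mouse 1 or 2 the adjusted p was 0.073 and 0.0724. With Ttr as a covariate it was 0.0579. Its neighbour Serpina3m had no count in the Rag2-/- libraries and 1.57 to 2.04 CPM in NSG, at least 58.1-fold higher. In stroked mice Serpina3n was at 159.1 CPM in NSG and 159.3 CPM in Rag2-/- mice on average. Gfap, the intermediate filament of astrocytes that the study also stained, was at 303.9, 242.8, 268.5 and 225 CPM against 112.1, 159.5 and 164.6 CPM, which do not overlap, but did not pass (log2 fold change 0.84, SE 0.35, adjusted p = 0.176). None of the other 6 stained-protein genes was called, with Rbfox3 at -0.19, Nefl at -0.13 and Aif1 at 0.01. The stained-protein list as a whole had a median of -0.06.

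Of 18 endothelial genes Ly6a was called, the Sca-1 surface protein whose level is known to follow the strain, at 3.31, 3.35, 3.2 and 4.46 CPM in NSG against 10.5, 9.36 and 8.48 CPM in Rag2-/- mice (log2 fold change -1.40, SE 0.24, adjusted p = 0.000226). The junction gene Tjp1 and the receptor Flt1 differed by -0.05 and 0.06, and no mural cell, fibroblast or oligodendrocyte marker was called among 10, 12 and 21 tested. Blood transcripts went apart within the same locus. Hba-a1 was higher (log2 fold change 2.36, adjusted p = 0.0473) and Hba-a2 lower (-4.08, adjusted p = 0.00179), although 89.3% of the 50-base stretches of Hba-a2 occur in Hba-a1. Hba-a1 lost its call without NSG mouse 2, which held 26.9 CPM (1.41, adjusted p = 0.246), and without Rag2-/- mouse 1 or 2 (adjusted p = 0.213 and 0.235).

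The extracellular matrix list, 96 collagens, proteases and their inhibitors, had 2 higher and 2 lower members and a median of 0.29, beside 2.8% called and a median of 0.01 over all genes. Mmp15, a membrane metalloproteinase, was at 50, 46.4, 50.4 and 48.9 CPM in NSG against 23.6, 26.8 and 22.3 CPM in Rag2-/- mice (log2 fold change 1.01, SE 0.11, adjusted p = 4.88e-07), a value that fell to 0.955 to 0.999 without NSG mouse 3 or Rag2-/- mouse 1 or 4. Col6a6 was higher (1.71, adjusted p = 0.000748) and Col6a4, also on chromosome 9, lower (-3.19, adjusted p = 9.94e-06). Col26a1 was at 4.33, 3, 3.03 and 3.25 CPM against 9.46, 9.85 and 8.48 CPM (log2 fold change -1.45, SE 0.17, adjusted p = 6.68e-07), and at -0.08 in stroked mice.

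Among neuromodulator receptors (48 tested) the serotonin receptor Htr2c was called. It was at 46.6, 31.7, 91.3 and 41.4 CPM in NSG against 18.9, 16.9 and 13.2 CPM in Rag2-/- mice (log2 fold change 1.69, SE 0.40, adjusted p = 0.00756). Choroid plexus also expresses this receptor, and with Ttr as a covariate the log2 fold change of Htr2c was 1.23 (adjusted p = 0.0577), as it was 1.56 (adjusted p = 0.0585) without Rag2-/- mouse 4. Of 22 neuropeptide and interneuron genes, Trh, thyrotropin-releasing hormone, was higher and Cort, cortistatin, lower. Trh rested on NSG mouse 3 with 14.8 CPM, the other NSG mice being at 1.68 to 2.38 and the Rag2-/- mice at 0.667 to 0.934 CPM (log2 fold change 2.74, adjusted p = 0.0407, and 1.31 with adjusted p = 0.398 without that mouse). It also lost its call without any of the 3 Rag2-/- mice (adjusted p = 0.112 to 0.155). Cort was at 3.83, 4.57, 3.32 and 4.02 CPM against 7.7, 8.69 and 9.5 CPM (log2 fold change -1.13, SE 0.27, adjusted p = 0.00806), and with Ttr as a covariate it lost its call (-0.96, adjusted p = 0.058).

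Of 18 clock genes Arntl2, a paralogue of Bmal1, was called lower, at 4.33, 3.53, 2.98 and 2.82 CPM in NSG against 12.5, 12.8 and 13.5 CPM in Rag2-/- mice (log2 fold change -1.92, SE 0.16, adjusted p = 2.01e-09). Tef and Nr1d1, which oscillate strongly, were at 0.06 and -0.09. No glucocorticoid target of 16, no ion channel of 40 and no splicing factor of 67 was called. Of 31 antioxidant and glutathione genes none was called, while Nnt, the mitochondrial transhydrogenase of which C57BL/6J carries a shortened allele, passed the p threshold alone (29.6 to 32.7 CPM against 16.9 to 18.5 CPM over its 2 Ensembl entries, which share their sequence, log2 fold changes 0.77 and 0.78). In a list of 17 tested genes known to vary between inbred lines, 3 were called higher and 1 lower (2.8% of all genes were called), among them Wdfy1, an adaptor of Toll-like receptor signalling, at 43.3 to 46.8 CPM against 12.4 to 14.7 CPM (log2 fold change 1.71, SE 0.12, adjusted p = 1.64e-10).

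Called genes were spread over the chromosomes but not evenly. Among the autosomes and chromosome X, the share was highest on chromosomes 17 (39 of 800 tested, 4.88%) and 14 (28 of 579, 4.84%) and lowest on chromosomes 10 (1.11%) and X (1.26%), against 2.8% over all genes. The mitochondrial genome had 2 of 13 called and chromosome Y 0 of 5. On chromosome 14, 22 of the 28 were lower in NSG mice, and on chromosome 2, 26 of 36 were higher. Of 451 bins of 5 Mb with at least 10 genes tested, 224 held no called gene.

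The densest bin was on chromosome 14 from 5 to 10 Mb, where 6 of 20 genes were called, all lower. They are Gm8281, Gm3248, Gm3468, Gm3558, Gm3636 and Gm3667, predicted genes that are at 0.699 CPM or less in all 7 mice. Of their stretches 48.8% to 88.1% occur in other genes, and 23.9% to 66.8% in the closest gene, which is also on chromosome 14. Gm3667 lost its call in 5 of the 7 fits that left out 1 mouse (adjusted p = 0.0783 to 0.172, held without NSG mouse 3 or Rag2-/- mouse 4), and Gm8281 without Rag2-/- mouse 2 (adjusted p = 0.0994). On chromosome 7 from 35 to 40 Mb 6 of 29 were called, all lower, led in level by Nudt19, a peroxisomal hydrolase of coenzyme A (14 ± 0.94 CPM against 34.5 ± 1.39 CPM, log2 fold change -1.30, adjusted p = 2.85e-09), and Pop4, a subunit of RNase P (-1.21, adjusted p = 4.19e-08). On chromosome 4 from 145 to 150 Mb 10 of 51 were called, 7 of them zinc finger genes. Zfp990 (227-fold higher, 95% counting interval 62.7 to 1882), Zfp992 (log2 fold change 2.495) and Zfp985 (4.25) were higher, and Zfp982 (-3.74) and Zfp991 (-2.57) lower. Zfp992 shares 37.5% of its stretches with Zfp991, and Zfp993, also called higher (1.64), shares 81.9% with it. The summed level of Zfp992 and Zfp991 differed by 0.713 on the log2 scale, without overlap. That of Zfp993 and Zfp991 differed by -0.259, with overlap. Calls in Zfp991, Zfp992 and Zfp993 are therefore uncertain as to which of them was transcribed. Il12rb2, a receptor chain for interleukin 12 on chromosome 6, was higher (2.85, adjusted p = 0.00127) and Gadd45a, in the same bin and a stress-induced cell cycle regulator, lower (-1.14, adjusted p = 0.000533), the latter under the minimum without Rag2-/- mouse 2 (-0.93) and with Ddx3y as a covariate (-0.98). The remaining dense bin, on chromosome 9 from 80 to 85 Mb, held Ttk and Mei4 (higher) and Impg1 (lower). Impg1 was called in 1 of the 7 fits that left out a mouse, the one without NSG mouse 3. Mei4 lost its call without NSG mouse 3 (0.95, adjusted p = 0.124) or Rag2-/- mouse 2 (adjusted p = 0.0859) or 4 (0.119).

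**Figure D4:**
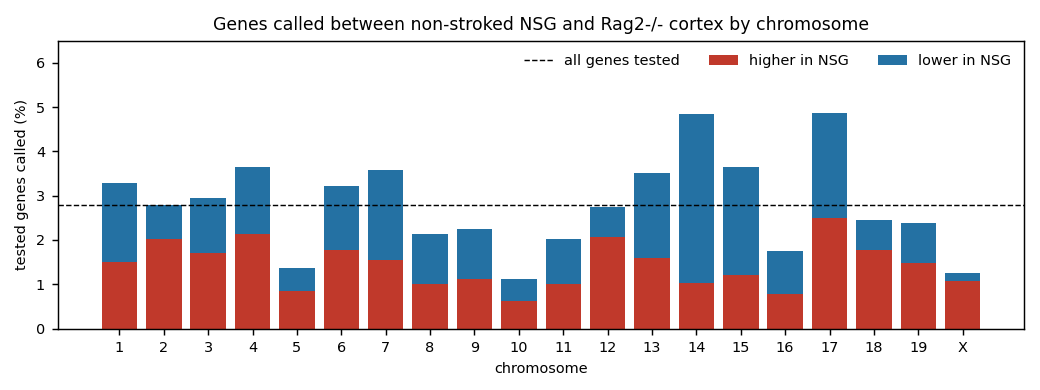
Share of the tested genes on each chromosome that were called (vertical axis, percent), split into higher (red) and lower (blue) in NSG mice, with a dashed line at 2.8% over all genes. Chromosomes 17 and 14 reach 4.88% and 4.84%, chromosome 14 mostly through lower genes, and chromosomes 10 and X stay at 1.11% and 1.26%.

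The same contrast was available from the stroked libraries. Stroked NSG and stroked Rag2-/- mice differed by 469 genes (2.75% of those tested, or 8.44% without the fold change minimum). Ddx3y was at 0 CPM in 2 of the 3 stroked NSG libraries and present in all 4 non-stroked ones, so at least these 2 are from other mice. Of the 477 genes called without stroke, 450 (94.3%) kept their sign and 293 (61.4%) were called again in the same direction, whereas 60.9% of all genes tested had the same sign in both. The lower genes were called again in 161 of 231 cases and the higher ones in 132 of 246. The values of the stroked groups did not overlap, in the same direction, for 360 of the 477 genes (75.5%) and for 15.9% of all genes.

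Gabra2 (1.59 in stroked against 1.42 in non-stroked mice), Scg5 (1.83 against 1.40), Atp6v0c (-2.66 against -2.74), Pttg1 (-4.58 against -5.49), H2-T22 (-3.44 against -3.76) and Arntl2 (-1.64 against -1.92) were similar in both on the log2 fold change scale and called in both. A total of 27 genes changed their sign, among them the 5 early genes with Trib1 and Gadd45a, Htr2c (-0.42 in stroked mice) and Serpina3n (0.00). Of these 27, 1 was called in the opposite direction, Dusp1.

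**Figure D5:**
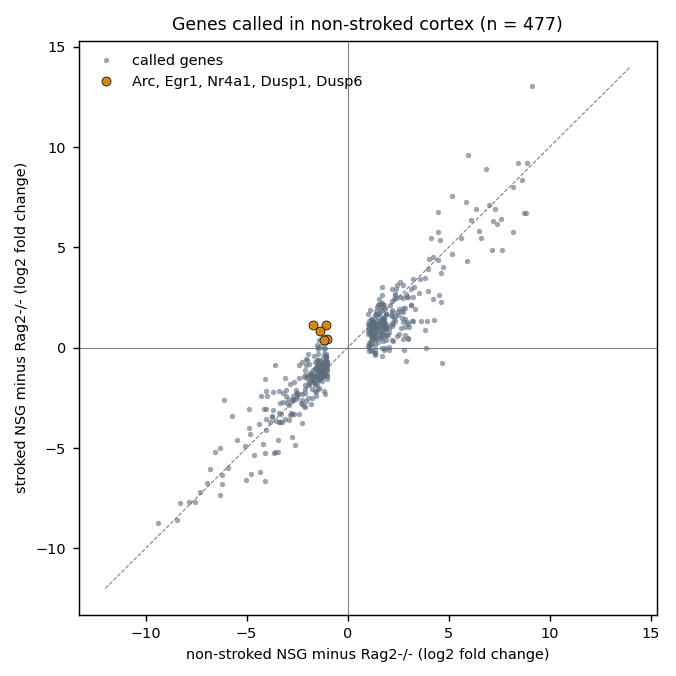
Log2 fold change of NSG minus Rag2-/- mice without stroke (horizontal axis) and with stroke (vertical axis) for the 477 genes called without stroke, with the dashed line at equality. Most points follow the line and 450 of 477 keep their sign, while Arc, Egr1, Nr4a1, Dusp1 and Dusp6 (orange) lie in the upper left quadrant, near the origin.

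Non-stroked WT mice give a further reference, although the comparisons with NSG mice share the NSG libraries. NSG and WT mice differed by 573 genes (3.36%), and Rag2-/- and WT mice by 1 (0.00587%), B230118H07Rik, while 349 genes had an unadjusted p under 0.05. Against WT mice the NSG values were 1.43 for Scg5, 1.36 for Gabra2, -2.59 for Atp6v0c, -1.51 for H2-K1 and -1.73 for Arc on the log2 fold change scale. The WT mice themselves were at 163.4 ± 5.67 CPM for Scg5, 55.3 ± 4.98 CPM for Gabra2 and 525.4 ± 316.7 CPM for Arc (SD, n = 4).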

How the data were processed

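RNA of mouse brain was sequenced from TruSeq stranded, poly(A)-selected libraries, and the authors deposited raw read counts per Ensembl gene. The aligner, counter and genome build are not given in the sources used here. Gene positions and names are from GENCODE M21 on GRCm38. Counts were fitted as deposited with edgeR 4.0.16 (R 4.3.3, quasi-likelihood test, TMM, filterByExpr), using all 29 samples in 8 groups for 1 estimate of the spread. SE is the log2 fold change divided by the root of F. Nothing says that samples of a group are independent beyond their numbers. The p-values measure a spread pooled over all 8 groups, not that of the compared mice alone. The pool includes samples whose titles carry another prefix than Imm2, with no term for it. Fitted alone, the groups compared gave 460 calls, 389 of them among the 477. Counting intervals (95%, exact) and floors (3 counts over the group) cover counting error only. The 50-base stretches each gene shares with others were counted in the transcripts. On simulated counts the fit recovered 195 of 200 genes changed 4-fold in the non-stroked comparison, with 1 other call among 16769 genes. The changed genes all had a mean above 1 CPM, and no difference in tissue or sex was simulated. The simulation therefore does not cover lower transcripts, smaller changes or such differences. Alternatives were DESeq2 1.42.0, RLE scaling, other filters and sample sets, covariates, and leaving out each mouse. No pair of libraries within a strain (9 compared) agreed within sampling noise. Named genes were those called with the largest differences or highest levels, the called and leading members of each list, and the genes of the densest bins. Genes named beyond this are Il7r, Fos, Trib1, Nnt, P2ry12, P2ry13, H2-D1, Egr3, Ier5 and Ier2, chosen after their values were seen. Lists and members were chosen with earlier results of these data known. Some genes of the lists are not reported here.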

Additional observations from a re-analysis of the deposited data

Results flagged for a closer look

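Among 115 genes and 38 summed lists, single NSG mice stood far from the other 3 in the following cases, by Dixon's test at the 95% level, which chance passes in about 1 in 20 groups. In NSG mouse 3, Trh was at 14.8 CPM (others at most 2.38), H2-Aa at 2.18 CPM (at most 1.08), H2-T23 at 1.79 CPM (at most 1.35), Nnt at 32.7 and 31.7 CPM for its 2 entries (at most 30.5 and 29.9) and Nr1d1 at 148.8 CPM (at least 168.1). In NSG mouse 2, Dusp6 was at 55.6 CPM (at most 37.6), Hba-a1 at 26.9 CPM (at most 7.02) and the summed blood list at 97.2 CPM (at most 26). In NSG mouse 4, Cx3cr1 was at 61.5 CPM (at most 52.6) and Ly6a at 4.46 CPM (at most 3.35). In NSG mouse 1, Eno1 was at 175 CPM (at least 198.2).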

How the results depend on the processing

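The 477 calls became 1078 without a fold change minimum, 251 when genes under a mean of 1 CPM were dropped, 225 with Rag2-/- mouse 4 alone and 238 with NSG mouse 4 alone, the last 2 chosen after seeing the data, with the lone mouse assumed to vary like the other groups. Leaving out each mouse gave 362 to 509. The other alternatives gave 369 to 668. With Ddx3y as a covariate 411 were higher and 257 lower, and with Ttr as a covariate, also chosen after seeing the data, 165 and 212. The 469 calls in stroked mice became 1438 without a fold change minimum, 237 without genes under a mean of 1 CPM and 205 when only the groups compared were fitted, and 345 to 567 when each mouse was left out. The test of the difference between both gave 0 calls, 14 with DESeq2, and 0 to 21 when each mouse was left out, 4 of them without non-stroked Rag2-/- mouse 4. Of 95 called genes named by rule, 48 kept their call in each of the 20 alternatives that could be fitted for them, 22 of these in all 20, and 0 reversed in any. Some alternatives leave out genes by construction, through a filter or by sequence sharing.

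With a replicate block over the 6 mice that share a number, 369 genes were called, against 408 in the same mice without it. Same-numbered mice correlated at -0.096, -0.013 and 0.03 in their deviations from the group means, so the numbers were not taken as pairs.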
